A study of Homo sapiens with 2 samples.

Results

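Accessible chromatin was examined at 5 loci of the antigen presentation machinery that lie outside the major histocompatibility complex, in GM12878, an established human B lymphoblastoid line made by Epstein-Barr virus transformation of B lymphocytes. The loci hold the genes CIITA, RFX5, CD74 and B2M and the CD1 cluster, with CD1A, CD1B, CD1C, CD1D and CD1E. Regions were taken by position, with the midpoint within 50 kb of the span of CIITA, RFX5, CD74 or B2M or inside the CD1 cluster, which gave 23 of the 23612 regions in the deposited list. The list comes from ATAC-seq, in which a transposase inserts sequencing adapters into accessible DNA, on 2 untreated cultures of 50000 cells each. Both cultures form 1 group and share 1 list, so there are no values per culture, no depth, no conditions and no replicate error. A transformed line stands here for B cells, and its B cell identity was not checked against marker genes, because no gene positions of the list's build, hg19, were used beyond the 5 spans.

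Class II molecules of the histocompatibility complex present peptides from endocytosed proteins, and B cells are among the cells that express them constitutively. Their genes are switched on by CIITA, a coactivator that does not bind DNA itself and is recruited to promoters by the RFX complex, NF-Y and CREB on neighbouring X and Y boxes. RFX5 is a DNA-binding subunit of the RFX complex. CD74, the invariant chain, escorts class II molecules and blocks their groove until they reach the endosome. B2M is the light chain of class I molecules and also pairs with the CD1 proteins, which present lipids to T cells.

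The promoter sequences of CD74, B2M and RFX5 are shown because the first base of each of these genes lay in an accessible region. CD1D is shown beside them as the CD1 gene at the lower end of its cluster. The first base of that cluster also lay in an accessible region, with a score of 955. CD1D's own first base was not placed in hg19, so CD1D is not a contrast without a region at its start. They are RefSeq sequences of GRCh38.p14, the 250 bases before the outermost annotated start, written 5′ to 3′ on the strand of the gene. RefSeq promoters matched 7 of the 9 genes. The windows of CD1A, CD1C and CD1E, and those of the further starts of RFX5 and CD1D, are not printed. CIITA and CD1B were not matched and are named only. Capitals mark matches on either strand to CCAAT (the Y box bound by NF-Y), TGACG (part of the X2 box bound by CREB), GAAANNGAA (core of an interferon-stimulated response element), GGACTTTCC (an NF-kB site) and ATGCAAAT (the octamer). The regions are in hg19 and the sequences are not, so the sequences show the promoters and not the edges of the regions.
CD74 (GRCh38.p14, chr5:150412911-150413160, minus strand): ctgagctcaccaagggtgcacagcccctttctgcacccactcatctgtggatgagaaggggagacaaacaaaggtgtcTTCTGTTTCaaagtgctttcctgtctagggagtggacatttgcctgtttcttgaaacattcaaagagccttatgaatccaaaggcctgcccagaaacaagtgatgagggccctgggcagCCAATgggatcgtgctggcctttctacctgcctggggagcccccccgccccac
B2M (GRCh38.p14, chr15:44711267-44711516, plus strand): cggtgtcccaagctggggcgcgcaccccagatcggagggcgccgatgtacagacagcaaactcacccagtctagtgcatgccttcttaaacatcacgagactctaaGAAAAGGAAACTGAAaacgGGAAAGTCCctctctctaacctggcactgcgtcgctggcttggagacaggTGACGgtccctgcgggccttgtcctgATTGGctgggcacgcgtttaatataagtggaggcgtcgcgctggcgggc
RFX5 (GRCh38.p14, chr1:151347253-151347502, minus strand): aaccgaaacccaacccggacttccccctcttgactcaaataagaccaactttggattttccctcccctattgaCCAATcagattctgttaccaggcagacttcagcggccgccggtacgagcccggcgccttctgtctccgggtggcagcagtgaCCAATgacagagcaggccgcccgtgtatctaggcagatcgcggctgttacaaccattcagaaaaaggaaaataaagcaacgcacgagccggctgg
CD1D (GRCh38.p14, chr1:158179697-158179946, plus strand): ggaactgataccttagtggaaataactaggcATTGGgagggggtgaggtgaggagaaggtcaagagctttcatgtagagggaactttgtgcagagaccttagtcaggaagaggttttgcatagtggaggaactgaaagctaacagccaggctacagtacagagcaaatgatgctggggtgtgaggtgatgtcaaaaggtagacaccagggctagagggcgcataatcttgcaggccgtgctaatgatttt

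The CD74 promoter held a CCAAT box 53 to 49 bases before the start, in the strand of the gene, and a GAAANNGAA match on the opposite strand at 172 to 164. B2M held its CCAAT box on the opposite strand, read as attgg, at nearly the same place, 49 to 45 bases before the start. A TGACG lay 75 to 71 bases before the B2M start. Farther out in B2M, a pair of overlapping GAAANNGAA matches spanned 144 to 130 bases before the start, next to the GGACTTTCC match on the opposite strand at 125 to 117. The outermost RFX5 window held a pair of CCAAT boxes, at 177 to 173 and 95 to 91 bases before the start. The windows of the other two RFX5 starts held no CCAAT. The first of them had a TGACG 30 to 26 bases and a GAAANNGAA match 206 to 198 bases before its start. The second had TGACG at 173 to 169 and at 47 to 43. These windows overlap, and the TGACG at 30 to 26 in the first is the same site as that at 173 to 169 in the second. The outermost CD1D window had a single CCAAT match on the opposite strand, 219 to 215 bases before the start, and its other window had no match. Nor did the outermost CD1A window or the CD1C and CD1E windows hold a match. The other CD1A window had a CCAAT match on the opposite strand, 137 to 133 bases before its start. The octamer matched none of the 4 windows printed.

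These matches are read against how common the letters are. Of 35116 RefSeq promoter windows of the same length, 32.01% held CCAAT, 21.2% TGACG, 6.88% GAAANNGAA, 1.63% ATGCAAAT and 0.333% GGACTTTCC. The GGACTTTCC match in B2M was thus the rarest of those found. The promoters also differed in CpG dinucleotides, which numbered 2 in CD74 and 18 in B2M, beside a median of 11 over all windows. For RFX5, CD1D and CD1A the number depended on the start. The RFX5 windows had 16, 8 and 16, the CD1D windows 2 and 8 and the CD1A windows 2 and 0, outermost first. CD1C had 0 and CD1E had 3. The motifs were chosen with these sequences in view, and a match is not evidence that a factor was bound.

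Each of the 4 genes with a span of its own had an accessible region over its first base, and each of these regions carried the highest score of the list, 1000. The share of all genes with a region over the first base is not known here, since no other gene positions of hg19 were used. The count is therefore not read as a trait of these genes. The authors' score is a whole number per region whose scale no header or label names. Its range resembles a scaled irreproducible discovery rate, a measure of agreement between replicates, and 60.1% of all regions share the maximum of 1000. Of the 23 regions near the loci, 15 (65.2%) had it, which is close to that background. The regions over the first bases were 1025 to 2106 bp wide, with a median of 1270.5 bp. The other 19 had a median width of 897 bp, and 11 of them had the highest score. The first base of the CD1 cluster also lay in a region, with a score of 955, whose midpoint falls just outside the cluster.

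**Figure D1:**
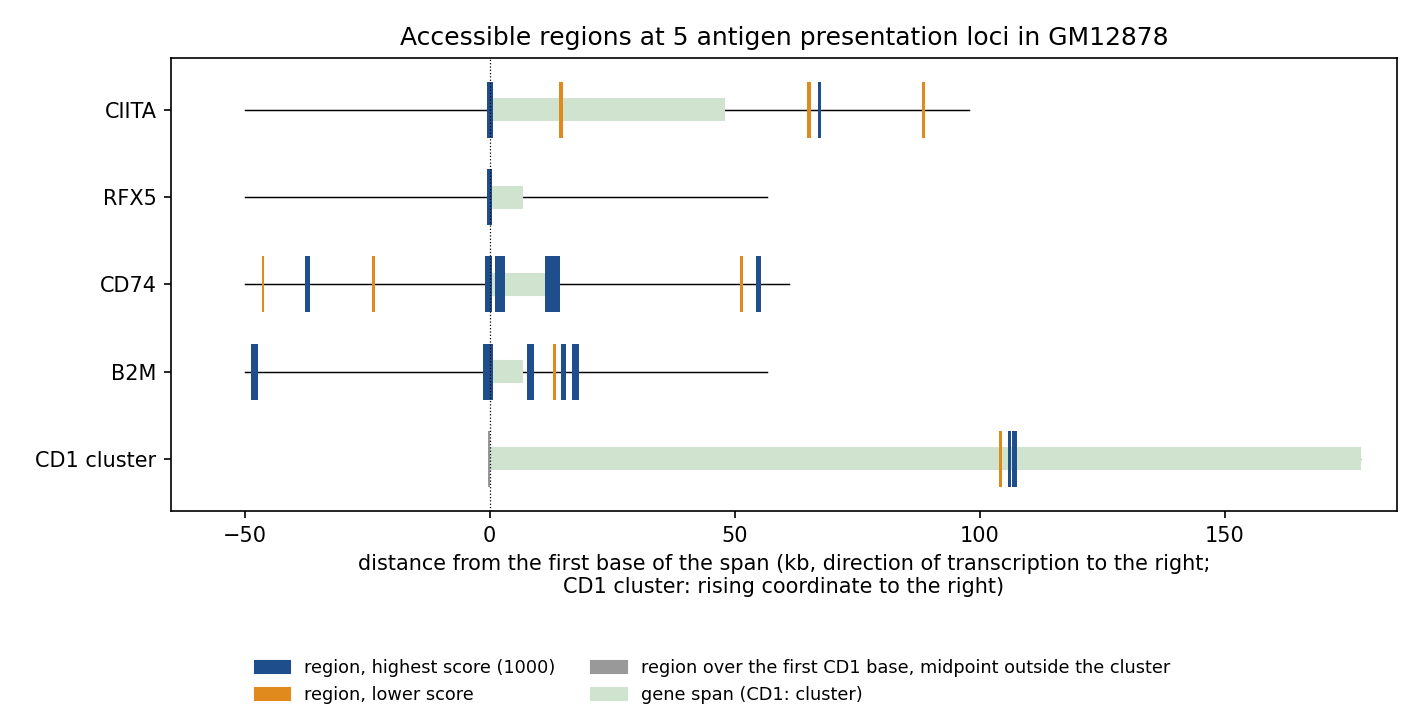
Map of the regions at the 5 loci, with the distance from the first base of each gene span (kb) on the horizontal axis and 1 row per locus. Thin lines show the 50 kb searched on either side, blocks are drawn to scale, and a region of the highest score sits at the first base of CIITA, RFX5, CD74 and B2M, while the CD1 cluster holds 3 regions close together.

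CIITA (hg19, chr16:10971055-11018840, plus strand, band 16p13.13) is the master regulator of class II transcription and is known to use alternative promoters that serve dendritic cells, B cells and interferon-treated cells. Its window held 5 regions. The one at the first base, chr16:10970587-10971680, was 1094 bp wide and reached from 468 bp upstream of the first base to 625 bp inside. No region was listed on the upstream side of it within the 50 kb searched, and the next region in that direction ended 100.9 kb away from its edge. Which of the known promoters the first base of the span stands for was not settled here.

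Inside CIITA there was a single further region, chr16:10985292-10985993, centred 14.6 kb into the gene, 702 bp wide with a score of 732. Together the parts of both regions inside the span covered 2.78% of it. Past the 3′ end, 3 regions lay in a stretch of 24.1 kb. The first of them began 16.9 kb past the end, was 897 bp wide and scored 835. The second, 1466 bp farther on, was 657 bp wide and had the highest score. The third lay 40.5 kb past the end and was 480 bp wide with a score of 588. In the RefSeq gene order the protein-coding genes that follow CIITA are DEXI and CLEC16A. No gene was assigned to these regions.

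RFX5 (hg19, chr1:151313116-151319769, minus strand, band 1q21.3) had 1 region in its window, the fewest of the 5 loci. It lay at the first base, chr1:151319201-151320225, was 1025 bp wide and reached from 456 bp upstream to 568 bp inside the gene. The rest of the gene held none, and the region covered 8.55% of the span. It stood alone, with 63.9 kb to the nearest region on the side of the gene's 3′ end and 191.9 kb to the nearest on the other side. Its first-base region and that of CIITA, which acts on the same promoters, were thus 1025 and 1094 bp wide, in windows that held 1 and 5 regions.

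CD74 (hg19, chr5:149781200-149792332, minus strand, band 5q32) had the most regions, 8 in its window, of which 5 had the highest score. The region at the first base, chr5:149791831-149793277, was 1447 bp wide and reached from 945 bp upstream to 501 bp inside the gene. After a gap of 560 bp came a wider one, chr5:149789159-149791270, which began 1062 bp into the gene and ended 3173 bp into it, with a width of 2112 bp. Both lay within 4.12 kb, and 23.5% of the CD74 span was covered, the highest share among the 5 spans.

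The widest region of all loci lay at the other end of CD74. It was 3039 bp wide (chr5:149777978-149781016), began 184 bp past the last base of the gene and had the highest score. It ranked as number 64 in width in the whole list, where 0.271% of regions were at least as wide. The next protein-coding gene on this side in RefSeq is TCOF1, a nucleolar factor in ribosomal RNA synthesis, and which of the genes the region serves cannot be told from position.

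The outer regions of CD74 were narrower. On the upstream side, 3 regions were centred 23.6, 37.1 and 46.2 kb from the first base, with widths of 597, 1110 and 370 bp and scores of 877, 1000 and 620. The next genes on this side are RPS14, which encodes a protein of the small ribosomal subunit, and NDST1. Past the 3′ end, a further pair lay 39.9 and 43.3 kb away, 557 bp wide with a score of 610 and 1060 bp wide with the highest score. The 370 bp region was the narrowest of the 23, and 97.7% of all listed regions were at least as wide.

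B2M (hg19, chr15:45003685-45010357, plus strand, band 15q21.1) had the widest first-base region and most of its regions past the 3′ end. The first-base region, chr15:45002341-45004446, was 2106 bp wide and reached from 1344 bp upstream to 761 bp inside, covering 11.4% of the gene. In the whole list, 2.65% of regions were at least as wide. No other region lay inside B2M. PATL2 is the next protein-coding gene on the upstream side in the RefSeq order, and its distance was not measured. The upstream part of this region was not assigned to either gene.

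Past the 3′ end of B2M, 4 regions followed within 10.5 kb. They began 1.01, 6.18, 7.96 and 10.2 kb past the last base, with widths of 1338, 780, 1022 and 1352 bp. The 780 bp region scored 558, and the other 3 had the highest score. The gaps between them were 3824, 1003 and 1222 bp. TRIM69 is the next protein-coding gene on this side. The remaining region was centred 47.9 kb upstream, near the edge of the search, and was 1376 bp wide with the highest score.

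**Figure D2:**
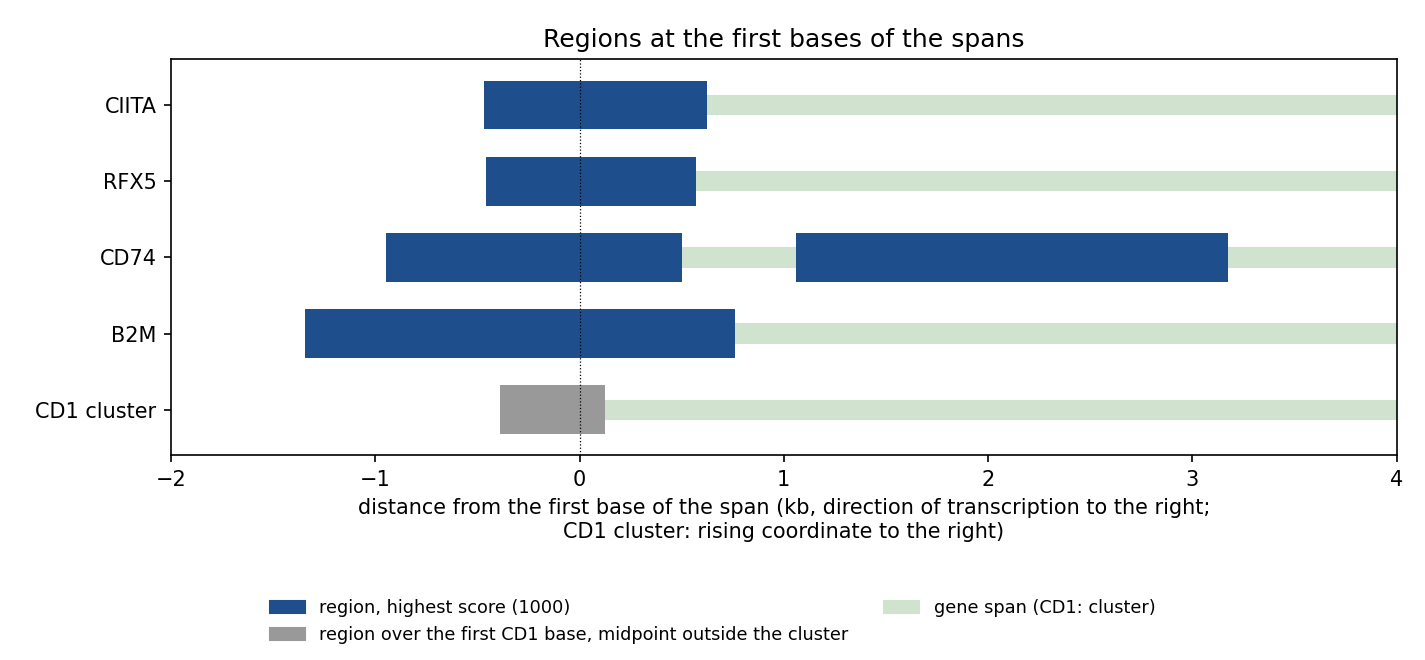
Extent of the regions at the first base of each span, with the distance from that base (kb) on the horizontal axis and negative values upstream. Blocks show regions, pale bars the spans; the B2M region reaches 1344 bp upstream, CD74 has a second region from 1062 bp inward, and the CD1 region is the narrowest at 515 bp.

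The CD1 cluster (hg19, chr1:158149737-158327343, band 1q23.1) covers 177.6 kb and held 3 regions, all in 1 block of 3.52 kb. CD1A, CD1B and CD1C present lipid antigens on dendritic cells. CD1E acts inside the cell in lipid loading, and CD1D presents lipids to natural killer T cells. The regions of the block were chr1:158253726-158254258, 533 bp wide with a score of 553, chr1:158255382-158256076, 695 bp wide, and chr1:158256299-158257240, 942 bp wide, the last and the middle one with the highest score. The gaps between them were 1123 and 222 bp. The block began 104.0 kb from the lower end of the cluster and ended 70.1 kb before the upper end, and no other midpoint fell in either stretch. These 3 regions covered 1.22% of the cluster, and all listed regions 1.29%, the lowest share of the 5 spans.

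The region at the lower end of the cluster, chr1:158149349-158149863, was 515 bp wide and had a score of 955. It covered the first base of the cluster, from 388 bp below it to 126 bp above it, and its midpoint lay 131 bp outside, so it is not among the 23. CD1D is the first CD1 gene at this end in the RefSeq order and lies on the plus strand, so its 5′ end faces this end of the cluster. A further region, chr1:158132769-158133230, lay 16.7 kb below the cluster. On the upper side the next region was 472.5 kb away. The rule gives no spans for the single CD1 genes, so the block inside the cluster was not assigned to any of them.

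Around the threshold of 50 kb, the outermost regions counted were those centred 47.9 kb upstream of B2M and 46.2 kb upstream of CD74. The nearest ones not counted at the 4 single genes were centred 58.7 kb from the RFX5 span, 66.4 kb from B2M and 77.3 kb from CD74. CIITA had none between 50 and 100 kb from its span.

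Regions near the loci were wider than the rest of the list in the middle of their distribution. The median was 1022 bp near the loci and 756 bp over the other 23589 regions, with quartiles at 676 and 1345 bp near the loci and 547 and 1082 bp over the others. This did not hold at every locus. Medians were 1345 bp at B2M, 1085 bp at CD74, 702 bp at CIITA and 695 bp at the CD1 cluster. The single RFX5 region was 1025 bp wide. CIITA and the CD1 cluster thus lay below the median of the other regions. Among regions of the highest score the median was 1110 bp near the loci (n = 15) and 953 bp elsewhere (n = 14165). Below it the medians were 577 bp (n = 8) and 555.5 bp (n = 9424). Regions of at least 2000 bp numbered 3 of 23 near the loci, while 3.31% of the list was that wide. They were the CD74 regions of 3039 and 2112 bp and the B2M first-base region. All 3 had the highest score, so the closer comparison is 3 of 15 beside 5.46% of the other regions of that score. The difference was not tested, since regions of 1 locus share their surroundings and are not replicates.

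**Figure D3:**
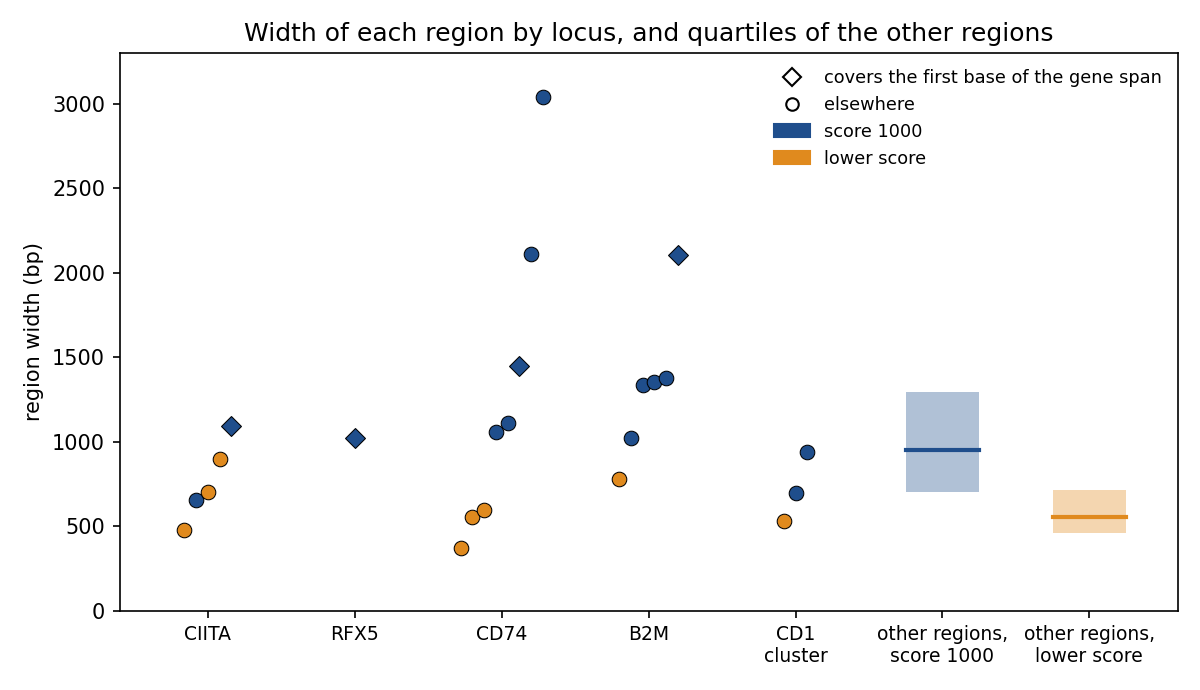
Width in bp of each of the 23 regions by locus, with diamonds for regions over the first base, blue for the highest score and orange for lower scores. Boxes show the quartiles and the line the median of all other listed regions, 953 bp at the highest score and 555.5 bp below it; CD74 and B2M hold the 3 regions above 2000 bp.

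The loci differed in how many regions they held for their length. CD74 had 7.20 regions per 100 kb, B2M 5.62, CIITA 3.38, the CD1 cluster 1.69 and RFX5 0.938. All 5 together had 3.54 per 100 kb, beside 0.772 over the full lengths of chromosomes 1 to 22 and X. To place these counts, the chromosomes were divided end to end into windows of the length of each locus. Centromeric, variable and stalk bands were left out of the windows, whereas the value of 0.772 includes them. At least as many as the 8 regions of CD74 were found in 0.423% of such windows, at least the 6 of B2M in 1.29%, and at least the 5 of CIITA in 5.27%. For the 3 regions of the CD1 cluster the share was 21.98%, and for the single region of RFX5 it was 44.5%. RFX5 and the CD1 cluster were therefore within the common range of windows. The windows were laid without regard to genes, whereas the loci are centred on genes, so the shares describe the list and test nothing. Of the 23 regions, 4 lay upstream of a gene span and 10 past its 3′ end. Whether these belong to the named genes or to their neighbours was not tested, so the densities describe the windows and not the genes alone.

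**Figure D4:**
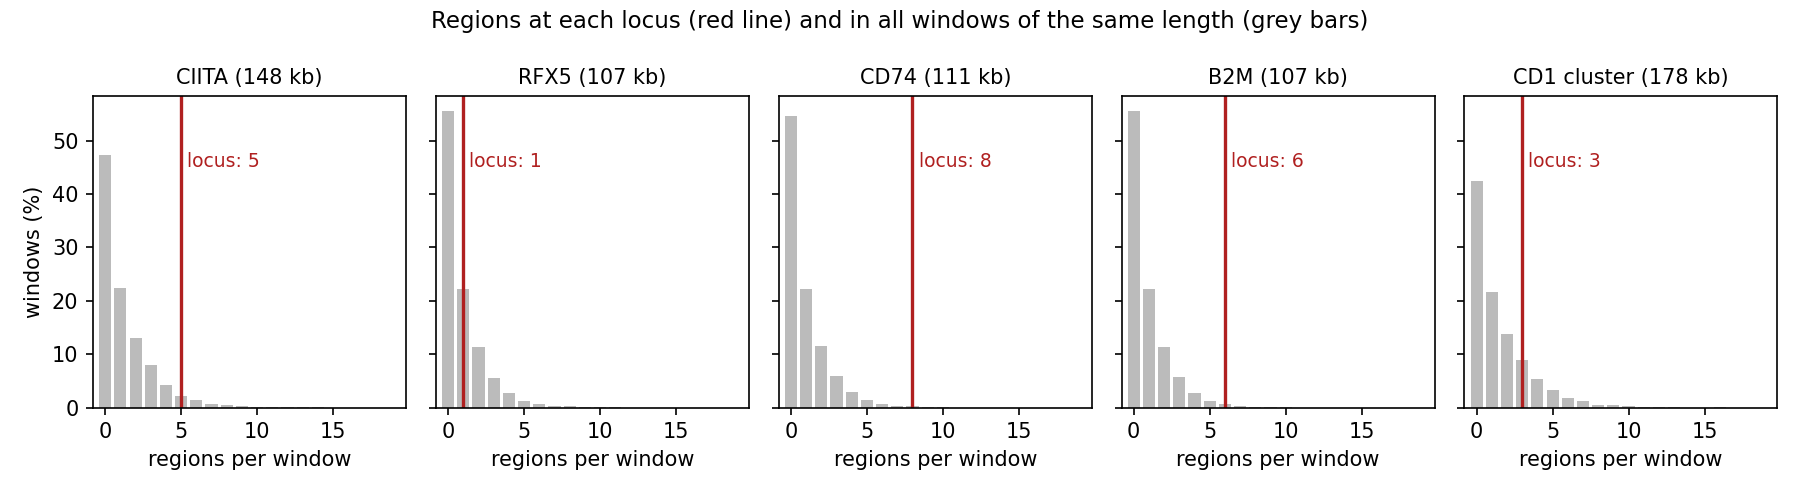
Regions per window on the horizontal axis and the percentage of windows on the vertical axis, for windows of the length of each locus laid end to end along chromosomes 1 to 22 and X. The red line gives the count at the locus, far in the tail for CD74 with 8 regions and B2M with 6, and in the body for RFX5 with 1 and the CD1 cluster with 3.

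The region numbers given by the authors ran without a skip at each of the 5 loci, counted from the last region before the window to the first after it. Whether the numbers were given before or after any filtering is not stated, so an unbroken run cannot show whether regions were removed. The stretches without regions, such as most of the CD1 cluster, are stretches where the list has no entry. The name of the list contains the letters idr and short forms that look like mappability, mitochondrial and blacklist filtering, although the labels explain none of them. Whether regions are missing through a threshold or filter was not tested, and depth is unknown, so these stretches are not read as closed chromatin.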

How the data were processed

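ATAC-seq was made from 2 GM12878 cultures, and the authors deposited a single list for both cultures, which has no header and gives a position, a running number and a score per region. The submitters' processing notes name hg19 as the genome build and, with no role for any, the tools BWA 0.7.13, MACS2 2.1.0, bedtools 2.24.0, SAMtools 0.1.19, Picard 1.92, CASAVA 1.8.4 and Trim Galore 0.3.3. Neither the scale of the deposited score nor any shift of reads for the transposase is given in the sources used here. The authors' score runs from 541 to 1000 and was used only to describe regions. Depth per culture is unknown, so no interval is given.

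Gene spans and strands in hg19 came with the choice of loci, which, like the lists and motifs, was made with earlier results of these data known. Every gene of the 5 loci is named, and neighbouring genes are the nearest protein-coding ones, at most 2 on either side, in the order of the RefSeq table (GRCh38.p14), whose positions were not set against the list. Other genes of the pathway and B cell markers were not analysed here, since no spans of hg19 were at hand. Starts were converted to count from 1. Bands and chromosome lengths of hg19 came from circlize 0.4.16. Calculations used Python 3.11.15, numpy 2.4.6 and pandas 2.3.3, with matplotlib 3.10.9 for plots. Short forms in the name of the list that look like a reproducibility threshold and filters were not checked. The assignment of regions to loci was tested on simulated data. No test was run, since there is 1 group without values per culture. Other distances, the highest score alone, other backgrounds and leaving out each locus were tried as alternatives.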

Additional observations from a re-analysis of the deposited data

How the results depend on the processing

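Of 18 alternatives over 4 results, 16 stayed within 1.5 times the reported value and 2 moved. The count of 23 regions became 7 inside the spans only and 15 at the highest score only, both by construction. It ran from 17 at 25 kb to 27 at 100 kb, and was 24 by any overlap, which takes in the region at the lower end of the CD1 cluster, and 25 with flanks of 50 kb around that cluster. First bases in a region numbered 5 of 5 spans, CD1 cluster included, and 4 at the highest score. Within 500 bp or 1 kb the number was again 5, by construction. A wider distance keeps every base already in a region, so these alternatives could not move. The median width ran from 897 bp, without the B2M locus or, chosen after seeing the data, without first-base regions, to 1110 bp at the highest score. The density over that of chromosomes 1 to 22 and X was 4.58-fold, 4.71-fold against the same chromosomes and 4.99-fold at the highest score. Each background was taken over full chromosome lengths, centromeric, variable and stalk bands included. No paired analysis was possible because both cultures share a single list, and for the same reason neither could be left out.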
